A study of Mus musculus with 8 samples.

Results

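Cholesterol synthesis and its control by SREBP2 were followed through 28 genes of mouse liver, which were chosen by name and make up 28 of the 21358 genes in the deposited expression table. They comprise 19 enzymes, from acetoacetyl-CoA formation to the last reductions of the sterol ring, 6 genes of the SREBP2 sensing and cleavage machinery, and 3 genes that act on sterol uptake, transport and esterification. The libraries compared were 4 called starvation glucose (SG 101, 103, 104 and 105), and 4 called feeding glucose (FG 93, 94, 95 and 96), which the series text sets apart by whether glucose came while feeding or fasting. Both groups had gone through 22 weeks of fasting on alternate days, and the title calls the mice a model of metabolic dysfunction without saying how it was made. The labels give no genotype, strain, sex, age, diet, hour of collection or time since the last food or glucose. Hour or interval and metabolic state therefore cannot be told apart where they differ with the group. The series text counts 4 mice per group, but no label ties a library to an animal, so p-values describe the spread between these libraries.

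Cholesterol is built in the cytosol and endoplasmic reticulum from acetyl-CoA. The mevalonate steps yield isoprenoid diphosphates, which condense to squalene, and squalene is cyclised to lanosterol and trimmed to cholesterol. Transcription of most of these enzymes is driven by SREBP2, a membrane-bound factor held in the endoplasmic reticulum by SCAP and INSIG proteins while sterol is abundant. When sterol falls, SCAP escorts SREBP2 to the Golgi, where the proteases S1P and S2P release its active domain. Liver is a major site of this pathway, and in mice hepatic sterol synthesis is known to vary with feeding and time of day.

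Promoter sequences were looked up because genes under SREBP2 control share short elements near their start. Of the 28 genes, 23 matched the RefSeq promoter table for GRCm38.p6, in 29 windows of 300 bases. The windows run from 250 bases before the start to 50 bases after it. Hmgcs1 is shown because it was the only matched gene whose window held TCACNCCAC, the core of a sterol response element, on either strand. Ebp and Sc5d are shown because they were called in opposite directions and no annotated exon reaches into their 250 upstream bases. For Msmo1, the gene with the largest difference, 23 bases that hold a cluster of motifs are given, from 73 to 51 bases before its start. Capitals mark TCACNCCAC, CCAAT (bound by NF-Y; ATTGG on the other strand) and GGGCGG (bound by SP1; CCGCCC on the other strand).
Hmgcs1, chr13:119690101-119690350, plus strand: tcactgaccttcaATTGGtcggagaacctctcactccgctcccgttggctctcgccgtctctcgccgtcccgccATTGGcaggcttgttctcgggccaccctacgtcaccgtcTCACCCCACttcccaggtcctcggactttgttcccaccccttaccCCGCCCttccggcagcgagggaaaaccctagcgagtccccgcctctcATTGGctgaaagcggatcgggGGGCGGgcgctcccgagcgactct
Ebp, chrX:8193513-8193762, minus strand: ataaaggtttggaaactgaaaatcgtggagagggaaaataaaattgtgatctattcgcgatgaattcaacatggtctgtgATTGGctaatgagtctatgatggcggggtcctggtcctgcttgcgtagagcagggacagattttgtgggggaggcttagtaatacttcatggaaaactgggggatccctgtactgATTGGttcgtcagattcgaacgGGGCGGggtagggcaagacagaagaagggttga
Sc5d, chr9:42264301-42264550, minus strand: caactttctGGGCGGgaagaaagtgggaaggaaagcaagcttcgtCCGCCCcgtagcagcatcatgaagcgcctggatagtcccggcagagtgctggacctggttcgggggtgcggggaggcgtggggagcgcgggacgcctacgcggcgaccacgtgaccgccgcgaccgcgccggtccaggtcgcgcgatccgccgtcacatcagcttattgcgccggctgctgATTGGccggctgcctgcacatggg
Msmo1, chr8:64733629-64733651, minus strand: GGGCGGgagtgGGGCGGaCCAAT
The sterol element core was present in 1 of the 29 windows and in 1.24% of all 32851 promoter windows. Only the pattern TCACNCCAC was searched for this element, so its absence from a window does not show that the gene lacks a sterol element. CCAAT was present in 19 of the 29 windows, against 37.4% of all windows. GGGCGG was present in 23 of the 29, against 35.7% of all. The windows of all genes were not matched to these 29 for base composition or expression level. These shares therefore do not show whether the 2 motifs are particular to the pathway. No matches overlapped in the printed runs, and a GGGCGG that crosses the start of Sc5d is left in lower case. The Ebp and Sc5d windows each held CCAAT and GGGCGG, so these motifs were found beside a gene called higher and beside one called lower.

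Expression is given as FPKM, fragments per kilobase of gene, scaled to the counted total. The libraries held 36545128 to 39214619 counted fragments in SG and 38253764 to 41977438 in FG. Albumin and the other 4 hepatocyte markers were abundant in all libraries (summed level 50300 to 66100 FPKM in SG and 48200 to 58000 FPKM in FG). Of these 5, Apoa1 was called higher in SG (8516 ± 695 FPKM in SG and 6319 ± 971 FPKM in FG, limma adjusted p = 0.0447) and the other 4 were not called. Summed markers of Kupffer cells, stellate cells, cholangiocytes, lymphocytes and red cells overlapped between the groups, and no marker on any of these lists was at 0 in every library. Of the 4 sinusoidal endothelial markers, only Clec4g was called (34.7 ± 5.66 FPKM in SG and 51.6 ± 4.05 FPKM in FG, limma adjusted p = 0.0161). It made up most of their summed level, which was 47.4 to 55.4 FPKM in SG and 63.2 to 77.0 FPKM in FG. The log2 differences of the other 3, Stab2, Kdr and Lyve1, were -0.007, -0.09 and 0.24, and none was called. The part of Clec4g and Apoa1 in the results was not tested. In bulk tissue, fewer cells of a type and less RNA per cell cannot be told apart.

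Differences were tested with limma on log2(FPKM + 1) over 9867 genes, and a gene was called at a Benjamini-Hochberg adjusted p below 0.05. All 28 genes passed the filter on low values. In SG, 4 of the 28 rose (Msmo1, Idi1, Tm7sf2 and Ebp) and 2 fell (Soat2 and Sc5d). Among all tested genes, 3.73% were called higher and 15.6% lower. The log2 difference, SG minus FG, was above 0 for 18 of the 28 genes and for 30.1% of all tested genes. Its median was 0.19 over the 28 genes and -0.135 over all tested genes. The groups did not overlap in 6 genes, against 26.1% of all tested genes. In 4 genes every SG library lay above every FG library, as in 4.35% of all tested genes. In 2 genes every SG library lay below every FG library, as in 21.8% of all tested genes. After median-ratio scaling, which moved the median of all tested genes to 0.006, 5.52% of all genes were called higher and 5.06% lower, and of the 28 genes 5 were higher and 0 lower. The fifth higher gene was Srebf2.

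**Figure D1:**
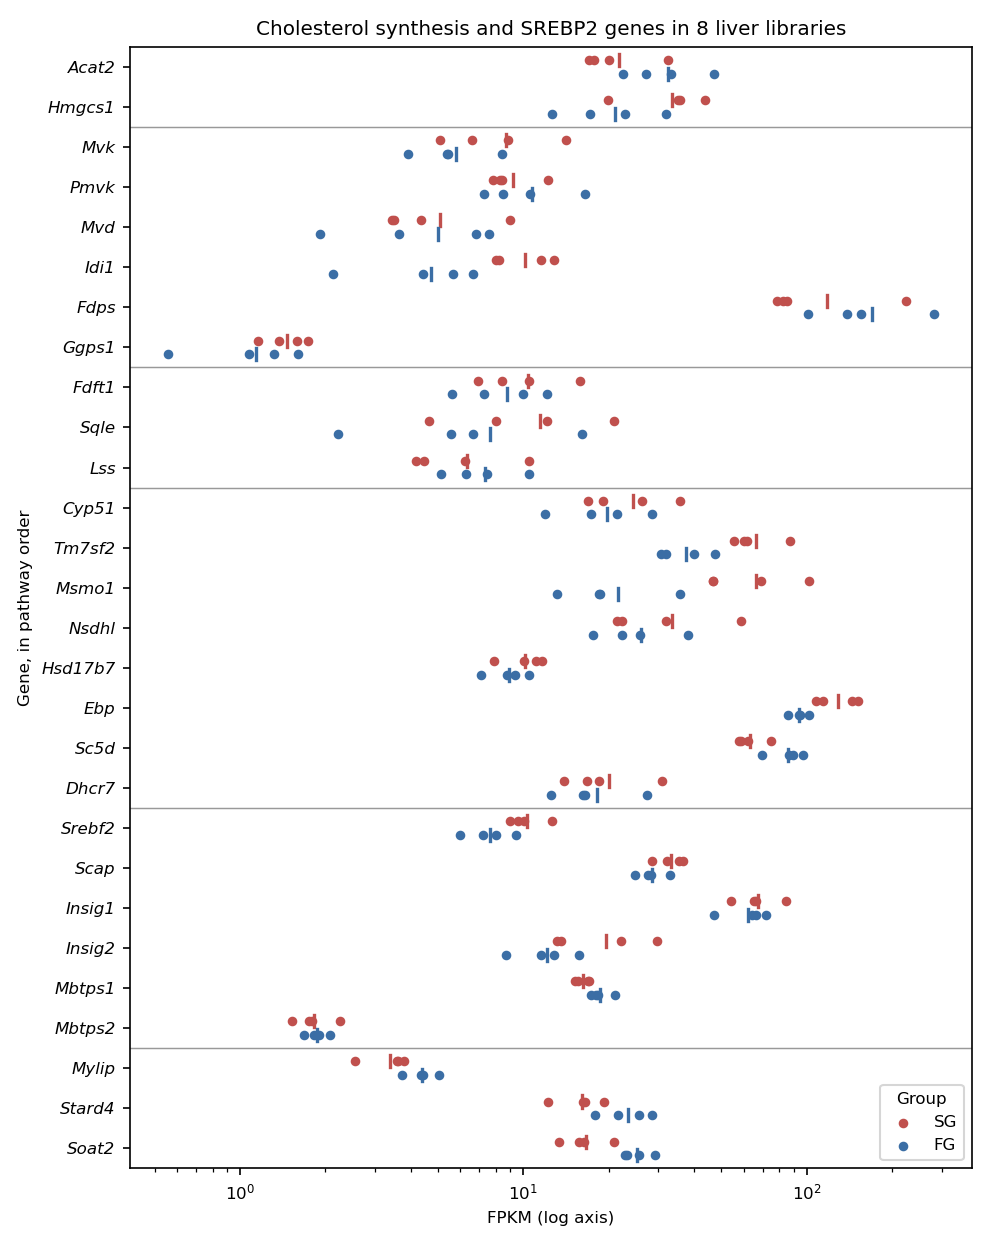
Expression of the 28 genes in pathway order (horizontal log axis, FPKM). Each point is a library, SG above FG in each row, vertical ticks are group means (n = 4 each), and grey lines separate the roles. Msmo1, Idi1, Tm7sf2 and Ebp have all SG points right of all FG points, and Soat2 and Mbtps1 have all SG points left of them.

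The pathway opens with acetoacetyl-CoA. Acat2, the cytosolic thiolase that makes it, had 32.5, 17.8, 20.1 and 17.1 FPKM in SG 101, 103, 104 and 105, against 33.3, 27.1, 47.0 and 22.6 FPKM in FG 93, 94, 95 and 96. The groups overlapped only through SG 101, and the difference of -0.55 on the log2 scale did not pass (SE 0.25, limma adjusted p = 0.151). Without SG 101 it passed (-0.75, limma adjusted p = 0.0416), as in no other of the 8 single-library omissions. Without FG 95 it was -0.36 (limma adjusted p = 0.308). Acat3, a close paralog that was named after its values were seen, averaged 101 FPKM in SG and 62.5 FPKM in FG. It was called higher in SG (log2 difference 0.68, limma adjusted p = 0.0062). How reads were shared between Acat2 and Acat3 is uncertain. Hmgcs1, which makes HMG-CoA in the cytosol and whose promoter is printed above, had 43.8, 35.6, 35.1 and 19.9 FPKM in SG, against 22.8, 17.1, 32.0 and 12.6 FPKM in FG. Only SG 105 lay within the FG range. The log2 difference of 0.67 did not pass (95% interval -0.0014 to 1.34, limma adjusted p = 0.141). With library weights it was 0.905 and passed (limma adjusted p = 0.0248), the only 1 of 18 alternatives in which it did.

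Of the 6 enzymes from mevalonate to the isoprenoid diphosphates, only Idi1 was called. Idi1, which isomerises isopentenyl diphosphate, had 12.8, 8.199, 11.5 and 7.98 FPKM in SG, against 5.64, 6.65, 4.44 and 2.13 FPKM in FG. Every SG library lay above every FG library. Idi1 rose by 1.01 on the log2 scale (SE 0.27, limma adjusted p = 0.0323; exact two-sided permutation p = 0.0286, the smallest that 4 against 4 libraries allow). The gene lies on chromosome 13 from 8885606 to 8892396 (GRCm38), and leaving out single libraries cost it the call 6 of 8 times (highest limma adjusted p = 0.0802). Mvk, mevalonate kinase, averaged 8.67 ± 3.96 FPKM in SG and 5.78 ± 1.87 FPKM in FG (SD, n = 4 each). Pmvk, the next kinase, averaged 9.19 ± 2.03 FPKM in SG and 10.7 ± 4.07 FPKM in FG. Mvd, the decarboxylase that follows, averaged 5.08 ± 2.65 FPKM in SG and 4.99 ± 2.67 FPKM in FG. These 3 enzymes overlapped between the groups and did not pass (limma adjusted p = 0.272, 0.649 and 0.921).

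Fdps makes farnesyl diphosphate and held the highest single value among the 28 genes. It shares 1124 bases of exon with Gm43738 on the same strand, for which no level is given. It had 225, 78.4, 85.2 and 82.5 FPKM in SG, against 140, 156, 281 and 102 FPKM in FG. SG 101 lay above 3 of the 4 FG libraries, and the other 3 SG libraries lay below all of them. The log2 difference of -0.58 did not pass (SE 0.39, limma adjusted p = 0.316). It passed without SG 101 (-0.94, limma adjusted p = 0.0488), as in no other of the 8 single-library omissions. Without FG 95 it was -0.30 (limma adjusted p = 0.595). It also passed without SG 101 and FG 95 together (-0.66, limma adjusted p = 0.0301), a comparison chosen after the values were seen. Ggps1, which makes geranylgeranyl diphosphate for protein prenylation at a branch from the sterol route, was the least abundant of the 28 genes, at 1.46 ± 0.25 FPKM in SG and 1.14 ± 0.44 FPKM in FG (limma adjusted p = 0.35). Even so it rested on at least 172 fragments in each library.

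None of the 3 enzymes between farnesyl diphosphate and lanosterol was called. Sqle, squalene epoxidase, an oxygen-dependent control point of the pathway, had 20.9, 8.04, 12.2 and 4.64 FPKM in SG, against 5.57, 6.63, 16.1 and 2.22 FPKM in FG. The highest library of each group was several times the lowest (4.50-fold in SG and 7.27-fold in FG), the widest range among the 28 genes in both groups. Its log2 difference of 0.60 carried an interval from -0.58 to 1.78 (limma adjusted p = 0.441). Fdft1, squalene synthase, averaged 10.4 ± 3.93 FPKM in SG and 8.74 ± 2.88 FPKM in FG. Lss, which cyclises the epoxide to lanosterol, averaged 6.33 ± 2.90 FPKM in SG and 7.33 ± 2.30 FPKM in FG. Fdft1 shares 774 bases of exon with Ctsb on the opposite strand. Without known strand use in the counting, its level can include reads of that gene. The same limit holds for Idi1 and Hmgcs1, which share 323 and 557 bases of exon with genes on the opposite strand. It also holds for Scap, Lss, Cyp51 and Ggps1, which share 985, 381, 166 and 257 bases.

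Of the 8 enzymes that turn lanosterol into cholesterol, 3 rose, 1 fell and 4 did not pass. The shares over all tested genes were 3.73% called higher and 15.6% called lower. Msmo1, the oxidase that removes the methyl groups at carbon 4 of the ring, had 102, 46.8, 68.9 and 46.8 FPKM in SG, against 18.7, 18.6, 35.6 and 13.2 FPKM in FG. Every SG library lay above FG 95, the highest FG library, and the ratio of the means was 3.07. Msmo1 rose by 1.59 on the log2 scale (SE 0.32, limma adjusted p = 0.0129) and was called whichever single library was left out (highest limma adjusted p over all 18 alternatives 0.044). It lies on chromosome 8 from 64718123 to 64733578. Tm7sf2, a sterol C14 reductase, had 87.6, 61.8, 60.2 and 55.5 FPKM in SG, against 32.0, 39.95, 47.7 and 30.7 FPKM in FG. The groups did not overlap, and Tm7sf2 rose by 0.80 on the log2 scale (SE 0.18, limma adjusted p = 0.017; 0.0534 without FG 93). It shares 532 bases of exon with Vps51 on the same strand, whose mean was 6.71 FPKM.

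Ebp, the isomerase that moves the ring double bond, had 152, 108, 114 and 144 FPKM in SG, against 85.8, 94.7, 102 and 94.1 FPKM in FG. The lowest SG library stood just above the highest FG library. Ebp rose by 0.44 on the log2 scale (SE 0.12, limma adjusted p = 0.0369) but 7 of 8 single-library omissions ended the call (highest limma adjusted p = 0.103). Sc5d, the desaturase that follows, had 75.1, 57.6, 61.9 and 58.8 FPKM in SG, against 86.5, 89.7, 97.4 and 69.6 FPKM in FG. SG 101 was above FG 96, and the other SG libraries were below all FG libraries. Sc5d fell by 0.43 on the log2 scale (SE 0.13, limma adjusted p = 0.0424), a call that 6 of 8 single-library omissions ended (highest limma adjusted p = 0.103) and that median-ratio scaling also ended (-0.26, limma adjusted p = 0.208). So the isomerase and the desaturase that act one after the other were called in opposite directions on the deposited scale.

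The other 4 enzymes of this stretch overlapped between the groups. Cyp51, the lanosterol demethylase, averaged 24.5 ± 8.48 FPKM in SG and 19.8 ± 7.01 FPKM in FG. Nsdhl, the C4 decarboxylating dehydrogenase, averaged 33.6 ± 17.4 FPKM in SG and 25.9 ± 8.80 FPKM in FG. Hsd17b7, the ketoreductase of the same complex, averaged 10.2 ± 1.64 FPKM in SG and 8.93 ± 1.42 FPKM in FG. Msmo1, Nsdhl and Hsd17b7 act together on carbon 4, and only Msmo1 was called. Dhcr7, which reduces the last double bond in one branch of the route, averaged 20.02 ± 7.45 FPKM in SG and 18.2 ± 6.43 FPKM in FG. The lowest limma adjusted p of these 4 was 0.431, for Hsd17b7.

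**Figure D2:**
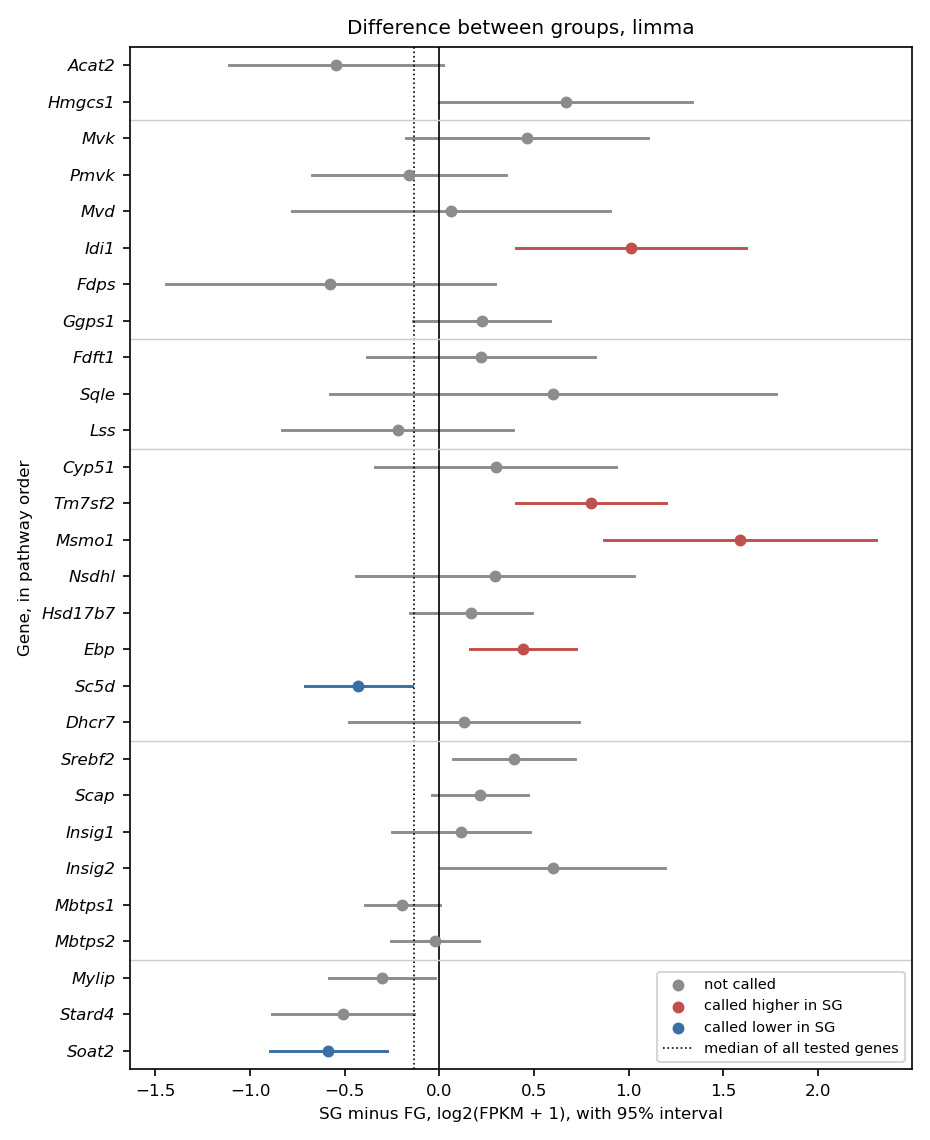
Difference SG minus FG in log2(FPKM + 1) for each of the 28 genes (horizontal axis) with its 95% interval from limma, in pathway order. Red points are called higher in SG, blue points called lower, grey points not called, and the dotted line is the median of all tested genes (-0.135). The intervals of Msmo1, Idi1, Tm7sf2 and Ebp lie right of 0 and those of Soat2 and Sc5d left of it.

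Among the 6 genes that sense sterol and release SREBP2, none was called on the deposited scale. Srebf2, which encodes SREBP2, had 12.6, 10.1, 9.57 and 8.98 FPKM in SG, against 7.99, 7.18, 9.40 and 5.96 FPKM in FG. Only SG 105 was below the highest FG library, FG 95. The log2 difference of 0.39 did not pass (interval 0.07 to 0.72, limma adjusted p = 0.0833; exact two-sided permutation p = 0.0571). Rescaled by median ratios it was 0.55 and passed (limma adjusted p = 0.0358). It also passed with library weights (limma adjusted p = 0.0242), quantile normalization (0.0397) and scaling by trimmed means (0.0422). Scap, the sterol-sensing escort, averaged 33.2 ± 3.65 FPKM in SG and 28.5 ± 3.38 FPKM in FG (limma adjusted p = 0.207).

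INSIG proteins retain the SCAP complex in the endoplasmic reticulum. Insig1 is itself an SREBP target, while Insig2 has a liver transcript that is known to be raised by fasting and lowered by insulin in rodents. Insig1 had 84.9, 66.4, 65.0 and 54.3 FPKM in SG, against 71.7, 66.0, 64.4 and 47.2 FPKM in FG. Insig2 had 13.1, 29.7, 13.6 and 22.1 FPKM in SG, against 12.8, 15.7, 8.65 and 11.6 FPKM in FG. SG 103 and SG 105 were above all FG libraries for Insig2, while SG 101 and SG 104 lay within the FG range. Neither gene passed (limma adjusted p = 0.641 for Insig1 and 0.137 for Insig2, with intervals of -0.25 to 0.48 and 0.01 to 1.19). The level of Insig2 relative to that of Insig1 was 0.154, 0.447, 0.21 and 0.407 in SG 101, 103, 104 and 105, against 0.178, 0.237, 0.134 and 0.245 in FG 93, 94, 95 and 96. Insig1 was thus the more abundant in every library, and the ratio was lowest in SG 101 among SG and in FG 95 among FG.

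The proteases differed less. Mbtps1, which encodes S1P, had 15.6, 17.0, 17.0 and 15.3 FPKM in SG, against 21.1, 18.1, 17.4 and 18.4 FPKM in FG. Its groups did not overlap (exact two-sided permutation p = 0.0286), but the log2 difference of -0.20 did not pass (limma adjusted p = 0.146) beside a median of -0.135 over all tested genes. Mbtps2, which encodes S2P, averaged 1.83 ± 0.30 FPKM in SG and 1.87 ± 0.16 FPKM in FG, with an interval of -0.26 to 0.21 (limma adjusted p = 0.887). It shares 2867 bases of exon with Yy2 on the same strand, whose mean was 0.229 FPKM.

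All 3 genes of sterol uptake control, transport and esterification had log2 differences below 0, as did 6898 of all 9867 tested genes. Of the 3 genes, 1 was called lower, as were 15.6% of all tested genes. Soat2, which esterifies cholesterol in hepatocytes for lipoproteins and storage, had 15.7, 16.4, 20.9 and 13.4 FPKM in SG, against 25.6, 22.9, 29.3 and 23.2 FPKM in FG. Every SG library was below every FG library. Soat2 fell by 0.59 on the log2 scale (SE 0.14, limma adjusted p = 0.0205), a call lost after median-ratio scaling (-0.42, adjusted p = 0.0666) and without FG 93 or FG 95 (0.0581 and 0.051). Stard4, a cytosolic sterol carrier whose expression is raised by SREBP2, had 16.3, 16.6, 19.3 and 12.2 FPKM in SG, against 28.6, 25.6, 21.6 and 17.9 FPKM in FG. Only SG 104 reached into the FG range, and the difference of -0.51 did not pass (limma adjusted p = 0.0609; 0.0401 without FG 96). Mylip, the ubiquitin ligase IDOL that marks lipoprotein receptors for breakdown and is induced by the oxysterol receptor LXR, averaged 3.39 ± 0.56 FPKM in SG and 4.39 ± 0.54 FPKM in FG (limma adjusted p = 0.116).

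Within each group, 1 library was the highest for most of the enzymes. Of the 19 enzymes, 17 were highest in SG 101 among the SG libraries and 17 were highest in FG 95 among the FG libraries. Over all tested genes, SG 101 was the highest of its group for 35.5% and FG 95 for 29.4%. SG 101 and FG 95 were also the lowest of their groups for 35.0% and 32.6% of all tested genes. Their library weights, fitted over all tested genes, were the lowest of each group, at 0.337 and 0.508. FG 96 was the lowest of its group for 17 of the 19 enzymes, against 28.2% of all tested genes. SG 105 was the lowest for 11 of the 19, against 34.5%. The enzymes stood a median of 0.80 above the mean of the other 3 SG libraries in SG 101, and 0.76 above the mean of the other 3 FG libraries in FG 95, on the log2 scale. Over all tested genes the same medians were 0.01 and -0.002.

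**Figure D3:**
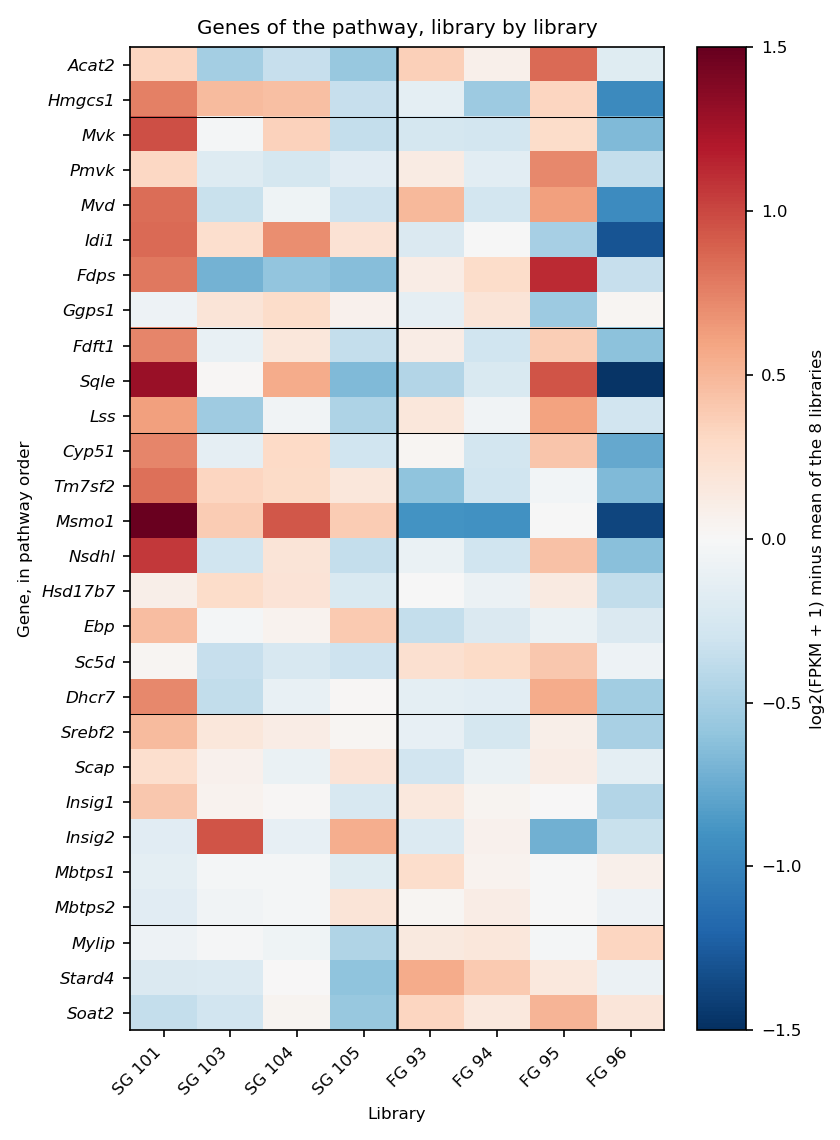
Each cell is log2(FPKM + 1) of a gene (rows, pathway order) in a library (columns, SG left and FG right) minus the mean of that gene over the 8 libraries. Red is above the mean and blue below it. The columns of SG 101 and FG 95 are red for most enzymes, that of FG 96 is blue, and Msmo1 and Idi1 are red in all SG columns.

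These libraries spread the enzymes widely. The highest library of a group stood over the lowest by a median of 2.18-fold in SG and 2.19-fold in FG across the 19 enzymes, against 1.41-fold and 1.34-fold across all tested genes. Fdps was 2.74 times the mean of the other SG libraries in SG 101, and 2.12 times that of the other FG libraries in FG 95. Sqle was 2.52 times and 3.35 times the mean of the others in the same libraries. Hmgcs1, Mvk, Lss, Cyp51, Msmo1 and Nsdhl followed the same order at both ends, highest in SG 101 and FG 95 and, among FG, lowest in FG 96. Some genes did not share it. Ggps1 was lowest of its group in both SG 101 and FG 95. Insig2 was likewise lowest in both, at 0.601 and 0.648 times the mean of the others. Srebf2 followed the enzymes, being highest in SG 101 and in FG 95.

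**Figure D4:**
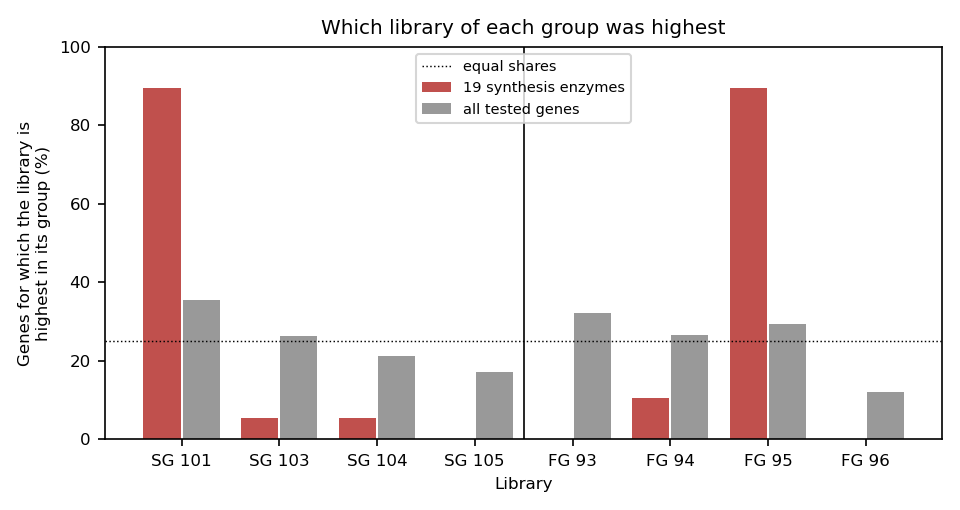
Percent of genes (vertical axis) for which a library was the highest of the 4 in its group, for the 19 enzymes (red) and all 9867 tested genes (grey), SG libraries left and FG libraries right. The dotted line marks equal shares. SG 101 and FG 95 each reach 89.5% for the enzymes.

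Marker sums of Kupffer cells and of stellate cells lay at the same end of the range in SG 101 and FG 95. Those of the other listed cell types did not. Summed cholangiocyte markers, for example, were lowest of SG in SG 101 (1.75 FPKM) but within the FG range in FG 95 (3.75 FPKM, range 2.7 to 11.8 FPKM). Summed Kupffer cell markers were 136 FPKM in SG 101 and 135 FPKM in FG 95, the top of ranges of 81.6 to 136 FPKM in SG and 89.1 to 135 FPKM in FG. Summed stellate cell markers were at the low end in both (60.2 FPKM in SG 101 and 59.9 FPKM in FG 95). Their part in the results was not tested. Without SG 101 and FG 95 together, a comparison chosen after the values were seen, 2 of the 28 genes rose (4.30% of all tested genes) and 3 fell (14.8% of all tested genes). Msmo1 (1.62, limma adjusted p = 0.00543) and Tm7sf2 (0.78, limma adjusted p = 0.00923) kept their calls. Idi1 (0.90, limma adjusted p = 0.0903), Ebp (0.40, 0.057) and Soat2 (-0.495, 0.059) lost theirs. Sc5d kept its call (-0.45, limma adjusted p = 0.0343), and Acat2 (-0.56, 0.0392) and Fdps (-0.66, 0.0301) were called lower. The widest shift of any of the 28 differences was that of Idi1, and only Mbtps2 changed sign (-0.02 and 0.02).

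**Figure D5:**
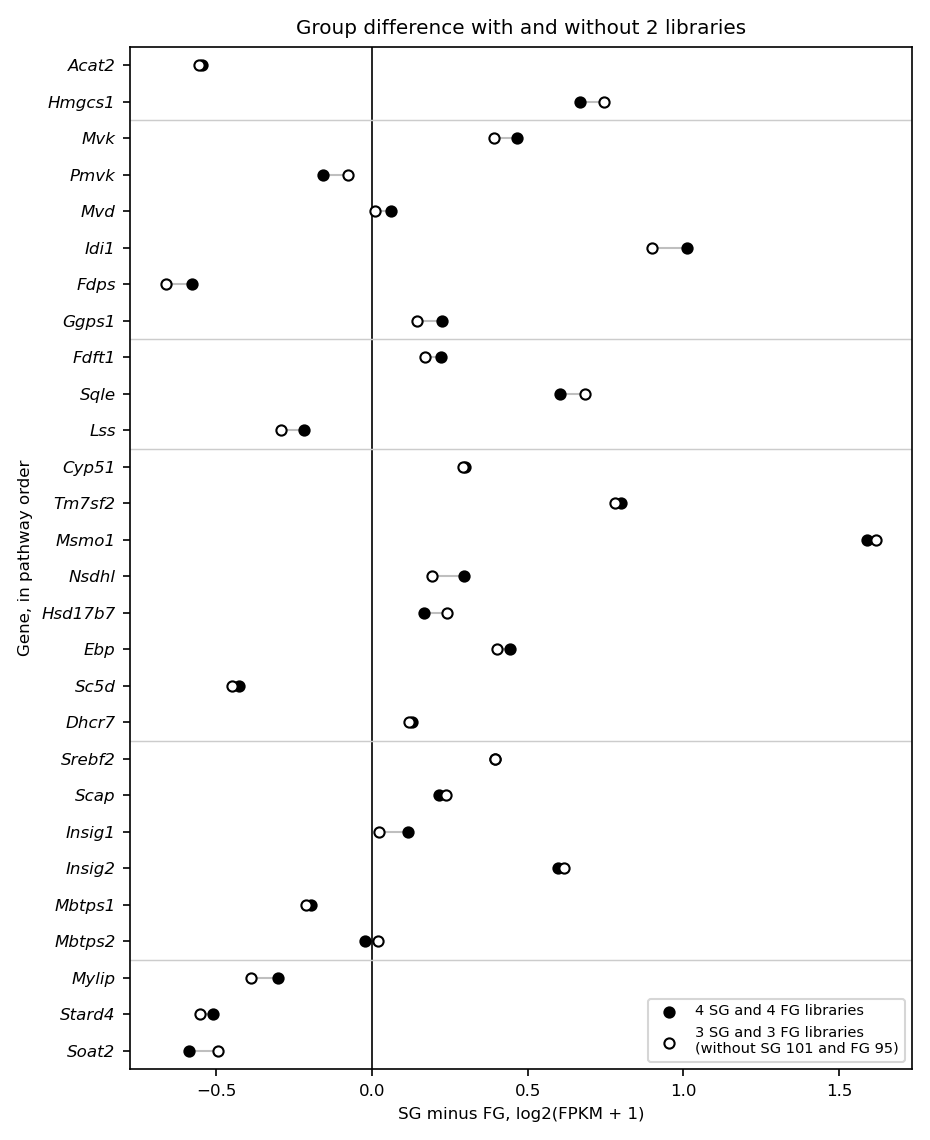
Difference SG minus FG in log2(FPKM + 1) for each of the 28 genes (rows, pathway order) from all 8 libraries (filled) and without SG 101 and FG 95 (open). Msmo1 stays farthest right at 1.59 and 1.62, and Fdps lies left of 0 at -0.58 and -0.66.

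Around the pathway, 59 genes on 7 lists were tested with the same fit, in which 3.73% of all tested genes were called higher and 15.6% lower. The lists are short, and nothing particular to a list is read from its counts. Of the 4 electron donors of sterol oxygenases, 1 rose and 1 fell. Por, the reductase that feeds the P450 enzyme Cyp51 and squalene epoxidase, rose to 398 ± 72.1 FPKM in SG, against 211 ± 18.5 FPKM in FG (limma adjusted p = 0.00557). Cyb5b, the cytochrome b5 of the outer mitochondrial membrane, fell to 70.8 ± 13.4 FPKM in SG, against 133.7 ± 18.3 FPKM in FG (limma adjusted p = 0.00748). Of 13 tested partners of SREBP and of sterol sensing in the endoplasmic reticulum, 1 fell and none rose. This was Rnf145, a sterol-responsive ubiquitin ligase that acts on SCAP, at 2.40 ± 0.52 FPKM in SG and 6.75 ± 1.35 FPKM in FG (log2 difference -1.19, limma adjusted p = 0.00255). Of 10 tested genes of the isoprenoid branches, only Icmt, which methylates prenylated proteins, was called, and it fell by 0.47 (limma adjusted p = 0.0105).

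Of 6 other genes with sterol-regulated expression, 3 fell and none rose, with a median log2 difference of -0.70. Among all tested genes, 15.6% were called lower and the median was -0.135. After median-ratio scaling, 1 of the 6 was called lower. Aacs, which activates acetoacetate in the cytosol for sterol and fatty acid synthesis, fell to 13.7 ± 5.75 FPKM in SG, against 57.7 ± 7.57 FPKM in FG (limma adjusted p = 0.00166). Acss2, which activates acetate, and Rdh11, a retinol dehydrogenase, fell by 0.93 and 0.996 on the log2 scale (limma adjusted p = 0.0464 and 0.04996), and both calls were lost after median-ratio scaling, at differences of -0.76 and -0.83 (limma adjusted p = 0.128 and 0.118). Single-library omissions also ended the call 7 of 8 times for Acss2 and 6 of 8 times for Rdh11. Mmab, which shares its promoter region with Mvk, averaged 8.28 ± 2.64 FPKM in SG and 6.96 ± 0.82 FPKM in FG and did not pass (limma adjusted p = 0.531).

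Of the 8 genes of LXR and its targets, 3 fell and none rose, where 15.6% of all tested genes were called lower. Srebf1, which encodes the SREBP of fatty acid synthesis, fell to 31.4 ± 14.8 FPKM in SG, against 89.6 ± 18.7 FPKM in FG (limma adjusted p = 0.011). Srebf1 and Srebf2 thus had log2 differences of opposite sign, -1.58 and 0.39, of which only that of Srebf1 was called. The receptor genes Nr1h3 and Nr1h2 fell by 0.32 and 0.38 (limma adjusted p = 0.0341 and 0.035), and neither passed after median-ratio scaling (-0.15 and -0.21, limma adjusted p = 0.284 and 0.181) or in 6 of 8 single-library omissions. In sterol transport and ester turnover, 1 of 11 tested genes rose and 2 fell, close to the 15.6% of all tested genes called lower. Lcat, which esterifies cholesterol in plasma, rose to 287 ± 8.64 FPKM in SG, against 236 ± 12.1 FPKM in FG (limma adjusted p = 0.0298; lost without FG 93, FG 94, FG 96, SG 103, SG 104 or SG 105, highest 0.0871). Osbp, an oxysterol-binding protein, and Stard3, an endosomal sterol carrier, fell by 0.46 and 0.36, and lost the call after median-ratio scaling (-0.31 and -0.20, limma adjusted p = 0.0813 and 0.216). Single-library omissions ended it 3 of 8 times for Osbp and 7 of 8 times for Stard3. Of 7 tested genes of sterol oxidation, 3 rose and 1 fell, where 3.73% of all tested genes were called higher and 15.6% lower. Those that rose were Cyp7a1, Cyp8b1 and Cyp27a1, all of bile acid synthesis. Cyp27a1 lost its call without FG 93 or SG 104 (highest limma adjusted p = 0.0536). Cyp7b1, Cyp39a1 and Hsd3b7 did not pass (log2 differences 1.245, -0.36 and -0.12, limma adjusted p = 0.0661, 0.341 and 0.635). Cyp8b1, which makes the cholic acid branch, had 245 ± 34.6 FPKM in SG and 79.8 ± 24.1 FPKM in FG (limma adjusted p = 0.00166). Cyp46a1, cholesterol 24-hydroxylase, was at 0.836 ± 0.20 FPKM in SG and 2.003 ± 0.53 FPKM in FG, and fell by 0.70 (limma adjusted p = 0.0144).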

How the data were processed

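Total RNA of mouse liver was sequenced in 8 libraries, 4 SG and 4 FG, grouped by the library names in the labels. The submitters' processing notes name HISAT2, HTSeq, fastp and DESeq2, and the builds mm10 and GRCm38, and per the series text HISAT2 aligned the reads. Strand use in counting and tool versions are not given in the sources used. The deposited values are FPKM, made by the authors for 21358 genes, and 0 of their columns could not be matched to a library.

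Genes with at least 1 FPKM in at least 4 libraries (9867) were fitted as log2(FPKM + 1) in limma 3.58.1 (R 4.3.3) with a mean-variance trend. There were no covariates. Benjamini-Hochberg adjustment ran over all of these genes. The log scale with a pseudocount of 1 understates changes of low genes. Fold changes are SG over FG. Intervals are 95% intervals of limma. The exact permutation test runs over 70 assignments of libraries and cannot go below 0.0286. The fit was tested on simulated data.

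Whole fragment numbers were recovered from the FPKM steps for 100% of genes within a tolerance of 0.02 fragments, with exon lengths of GENCODE vM21 for the absolute scale. They gave the depth and the fragments behind low values, and entered one alternative (limma voom). Depth limits counting error only.

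The 28 genes, the 7 neighbouring lists and the marker lists were chosen with earlier results of these data known, so they are described by counts and medians. All 28 genes are named whatever their values. From each neighbouring list up to 3 called genes with the smallest p are named. Mmab, Cyp27a1, Cyp7b1, Cyp39a1 and Hsd3b7 are named after their values were seen. Promoters were to be shown for the 3 genes with the smallest p, Msmo1, Tm7sf2 and Soat2. The windows of Msmo1 and Tm7sf2 overlap annotated exons, and Soat2 was not matched in the promoter table. A stretch of 23 bases is shown for Msmo1, and whole upstream runs for Hmgcs1, Ebp and Sc5d, chosen after their values were seen. Alternatives covered the pseudocount, the filter, scaling, the variance model, library weights and leaving out each library.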

Additional observations from a re-analysis of the deposited data

Results flagged for a closer look

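In 56 sets of 4 values on the log2(FPKM + 1) scale (28 genes in 2 groups), 3 had a library whose gap to its neighbour took up an unusually large share of the range of the group, by Dixon's 95% critical value. Chance flags about 1 in 20 sets. Fdps in SG 101 had a gap of 0.922 of the log2 range, at 225 FPKM. Pmvk in SG 101 had a gap of 0.839 of the log2 range, at 12.2 FPKM. Mylip in SG 105 had a gap of 0.859 of the log2 range, at 2.55 FPKM, the low end of its group. Both high values are in the library that was highest of the SG libraries for 17 of the 19 enzymes.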

How the results depend on the processing

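No paired analysis was possible because the 2 groups share no replicate numbers. The count of the 28 genes called higher in SG was 4. It was 5 after median-ratio scaling, trimmed-mean scaling or quantile normalization, 6 with library weights and 1 with no filter on low values. It was 2 without SG 101 and FG 95 together, and 1 to 3 when 1 library was left out. The count called lower was 2. It was 0 with no filter, 0 after median-ratio scaling, 0 after trimmed-mean scaling, 1 after quantile normalization, and 0 to 4 when 1 library was left out. Among all tested genes, 368 were called higher, 219 with no filter, 572 with library weights and 181 to 467 when 1 library was left out. There were 1544 called lower, 914 with no filter, 499 after median-ratio scaling, 510 after trimmed-mean scaling, 616 after quantile normalization and 653 to 1896 when 1 library was left out. Leaving out a library leaves fewer samples, and no filter raises the number of genes tested to 21358; other causes were not tested.

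Of 501 values of single genes under an alternative, 441 kept direction and side of the threshold, 35 lost a call, 10 gained one and 15 reversed, none of them in a called gene. Pmvk reversed after median-ratio scaling (0.00053) and without FG 95, and ranged from -0.306 to 0.0538 when 1 library was left out. The same range was -0.243 to 0.276 for Mvd (reversed without FG 94, FG 96 or SG 101), -0.00704 to 0.493 for Nsdhl (SG 101) and -0.0906 to 0.337 for Dhcr7 (FG 96 or SG 101). It was -0.0108 to 0.213 for Insig1 (FG 96) and -0.0932 to 0.028 for Mbtps2 (FG 94 or SG 101). Mbtps2 also reversed after median-ratio scaling (0.0899), trimmed-mean scaling (0.0851) and quantile normalization (0.0989), and without SG 101 and FG 95 together (0.0201). Of the called genes, Msmo1 alone passed in all 18 alternatives. Depth does not limit these genes, since each library held at least 133 fragments of every one of them.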
